A study of Homo sapiens with 10 samples.

Results

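A group of 174 genes fell at least 2-fold when primed human embryonic stem cells (hESCs) were kept in crotonate and rose at least 2-fold when human extended pluripotent stem (hEPS) cells were kept in the same compound. They were picked from 12111 genes that reached 1 FPKM (fragments per kilobase of transcript, scaled to the number of mapped fragments) with or without crotonate in each cell state, among 18437 genes present in all 3 tables. The rule was a difference of log2(FPKM + 1) of at most -1 for H9-primed + Cr minus H9-primed and of at least 1 for hEPS + Cr minus hEPS, so these 2 differences chose the genes and are given as a description. The members made up 1.44% of the measured genes. In H9-primed + Cr, 1513 of the 12111 genes (12.5%) were at least 2-fold lower and 1511 (12.5%) at least 2-fold higher than in H9-primed, and in hEPS + Cr 927 (7.65%) were higher and 286 (2.36%) lower than in hEPS. A further 361 genes were higher with crotonate in both cell states, 92 were lower in both and 44 were higher in H9-primed + Cr and lower in hEPS + Cr.

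All cells came from 1 established hESC line, H9, carrying a GFP transgene driven by LTR7, the long terminal repeat from which the endogenous retrovirus HERVH is transcribed. The 5 groups were hEPS cells after 12 days in 10 mM crotonate (hEPS + Cr), untreated hEPS cells made from the reporter hESCs in LCDM medium on mouse feeder cells and then taken off them (hEPS), endodermal cells obtained by treating the reporter line with BMP4 together with Activin A (Endoderm), primed hESCs after 12 days in 10 mM crotonate (H9-primed + Cr) and untreated primed hESCs (H9-primed). The labels list 2 samples for each group, but each group has 1 FPKM column, and the sources used here do not say how samples were combined. Spread between samples is therefore unknown, no test was run, and no difference below has a replicate check. The hEPS columns, the primed columns and the Endoderm column stand in 3 separate tables, so a level set across tables also carries any difference in scaling between them.

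Crotonate is taken up by cells and turned into crotonyl-CoA, the donor for crotonylation of lysines on histones and other proteins. Primed hESCs grow as an epithelium: E-cadherin and claudins hold neighbouring cells together, splicing regulators and transcription factors keep the epithelial program on, and repressors of the SNAI and ZEB families, which bind the E2-box, switch it off in an epithelial-mesenchymal transition. Nodal, its coreceptor and its LEFTY inhibitors form a feedback loop that pluripotent cells use for self-renewal and for entry into endoderm. Interferon-inducible genes hold sensors of viral RNA and the machinery that loads peptides onto MHC class I.

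Known markers of the cell types were checked first. All 9 pluripotency markers reached 1 FPKM in hEPS + Cr, in hEPS and in H9-primed, against 4 of 9 in Endoderm and in H9-primed + Cr. Their sum was 1003 FPKM in hEPS + Cr against 1537 FPKM in hEPS, and 177 FPKM in H9-primed + Cr against 2368 FPKM in H9-primed. Of 10 definitive endoderm markers, 10 reached 1 FPKM in hEPS + Cr and 9 in hEPS, 7 in H9-primed + Cr and 2 in H9-primed, and only 3 in the column labelled Endoderm. These markers summed to 2626 FPKM in hEPS + Cr against 167 FPKM in hEPS, and to 225 FPKM in H9-primed + Cr against 4.20 FPKM in H9-primed. CER1 alone had 1962.5 FPKM in hEPS + Cr against 39.0 FPKM in hEPS. The column labelled Endoderm held 7 of 8 lateral plate mesoderm markers, 7 of 8 mesenchyme markers and 9 of 10 trophoblast or amnion markers at 1 FPKM or more, so it is called by its label and not taken as definitive endoderm. H9-primed + Cr likewise held 7 of 8 lateral plate mesoderm, 7 of 8 mesenchyme and 5 of 10 trophoblast or amnion markers. Its lateral plate mesoderm markers summed to 778 FPKM, against 380 FPKM in Endoderm and 0.744 FPKM in H9-primed. The summed level of the 10 surface epithelium markers, 5 of which are members, was 2215 FPKM in hEPS + Cr and 881 FPKM in hEPS, 3664 FPKM in Endoderm, and 1284 FPKM in H9-primed + Cr and 837 FPKM in H9-primed. Keratins KRT8, KRT18 and KRT19 made up most of these sums. The other 7 markers, each lower in H9-primed + Cr than in H9-primed, summed to 197 FPKM in hEPS + Cr and 118 FPKM in hEPS, 135 FPKM in Endoderm, and 16.3 FPKM in H9-primed + Cr and 361 FPKM in H9-primed. In H9-primed + Cr the mesenchyme markers summed to 3061 FPKM, against 243 FPKM in H9-primed, and in hEPS + Cr to 383 FPKM, against 110 FPKM in hEPS. The part that such shifts in cell type had in the results below was not tested. In bulk samples a smaller number of cells of a type and less RNA per cell cannot be told apart.

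**Figure D1:**
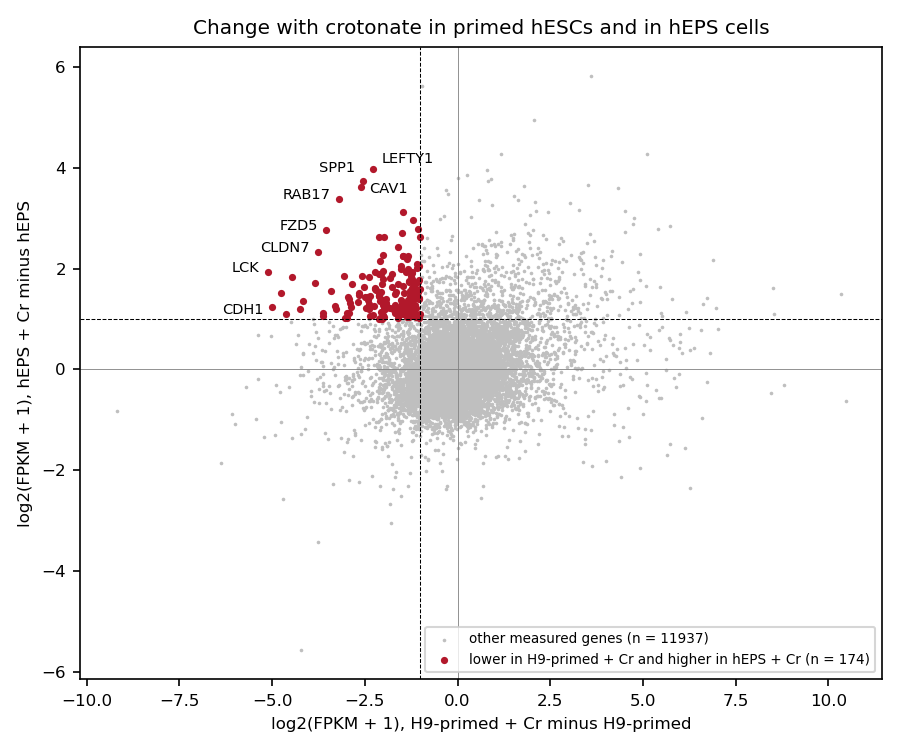
Each point is 1 gene, with its difference of log2(FPKM + 1) in H9-primed + Cr minus H9-primed on the horizontal axis and in hEPS + Cr minus hEPS on the vertical axis, and dashed lines mark the thresholds at -1 and 1. The 174 members (red) fill the upper left corner by the rule, led by LEFTY1 at 3.97 in hEPS and by LCK at -5.11 and CDH1 at -5.00 in primed hESCs.

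Among the members the fall in primed hESCs had a median of -1.65, with a lower quartile of -2.27 and the largest fall at -5.11, all on the log2(FPKM + 1) scale. The rise in hEPS cells had a median of 1.43, an upper quartile of 1.77 and its highest value at 3.97. In 68 members the fall was at least 4-fold, in 24 the rise was, and in 9 both were. The fall was the larger change in 109 of 174 members. The median level was 12.9 FPKM in hEPS + Cr and 3.74 FPKM in hEPS, 2.19 FPKM in Endoderm, and 1.05 FPKM in H9-primed + Cr and 8.02 FPKM in H9-primed. In H9-primed + Cr 86 members lay below 1 FPKM, against 588 of all 12111 measured genes. The rule picked members for a low value in that column.

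The members nearest to the thresholds show how narrow the edge of the set is. In primed hESCs SLC4A11 (-1.008), SYT4 (-1.013) and EIF2AK2 (-1.02) stood just inside, and IFI30 (-0.99), DIRAS1 (-0.97) and BNIP3 (-0.95) just outside. In hEPS cells OVOL2 (1.001), DDIT4L (1.009) and SOCS1 (1.014) stood just inside, and HLA-DRA (0.999), RBM47 (0.998) and MUC3A (0.994) just outside.

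Upstream sequences of members bear on which DNA-binding families have letters of their motifs there, and promoters from RefSeq (GRCh38.p14), 250 bases before to 50 bases after a start, were found for 116 of the 174 members. CDH1, EPPK1 and GAL are among those with none in the table. The letters CAGGTG, the E2-box bound by SNAI and ZEB repressors, searched on both strands, occurred in a window of 56 of these 116 members (48.3%), against 360 of 1052 (34.2%) genes that fell in primed hESCs without rising in hEPS cells and 2357 of 9921 (23.8%) of all measured genes. The letters GAAA, any 2 bases and GAAA again, the core of the interferon-stimulated response element, occurred on either strand in 11 members (9.48%), against 3.04% of the other genes that fell in primed hESCs and 3.72% of all measured genes. TGANTCA, the AP-1 motif, was found in 15 members (12.9%), against 7.51% of the other genes that fell in primed hESCs and 6.86% of all measured genes. AACCNGTT, the motif of GRHL factors, was in no window of the 116, against 1.9% of the other genes that fell in primed hESCs and 1.99% of all measured genes. A match is a run of letters and not a site shown to be bound, and a gene counts once if any of its windows holds it. The median GC content of the windows was 64.3% for members and 65.0% for all measured genes.

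RAB17, CRB3, FZD5 and ELF3, members of the epithelial and WNT groups that hold it, are shown with the 200 bases before their start, 5′ to 3′ on the gene's own strand, with each CAGGTG or its reverse complement CACCTG in capitals. RAB17 and CRB3 hold 3 matches each, whereas FZD5 and ELF3 hold 1 each. They lie at chr2:237590735-237590934 (minus strand, RAB17), chr19:6464071-6464270 (plus strand, CRB3), chr2:207769907-207770106 (minus strand, FZD5) and chr1:202010387-202010586 (plus strand, ELF3).
RAB17: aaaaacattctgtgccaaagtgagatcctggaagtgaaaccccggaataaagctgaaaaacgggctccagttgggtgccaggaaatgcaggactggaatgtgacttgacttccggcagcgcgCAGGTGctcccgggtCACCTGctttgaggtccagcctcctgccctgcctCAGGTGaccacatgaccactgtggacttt
CRB3: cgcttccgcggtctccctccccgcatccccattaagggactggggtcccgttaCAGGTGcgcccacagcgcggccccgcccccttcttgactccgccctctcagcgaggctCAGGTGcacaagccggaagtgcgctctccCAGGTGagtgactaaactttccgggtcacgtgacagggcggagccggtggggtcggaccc
FZD5: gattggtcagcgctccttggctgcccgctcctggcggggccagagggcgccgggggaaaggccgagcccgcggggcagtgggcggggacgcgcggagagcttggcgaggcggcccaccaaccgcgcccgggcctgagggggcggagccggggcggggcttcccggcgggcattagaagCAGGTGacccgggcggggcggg
ELF3: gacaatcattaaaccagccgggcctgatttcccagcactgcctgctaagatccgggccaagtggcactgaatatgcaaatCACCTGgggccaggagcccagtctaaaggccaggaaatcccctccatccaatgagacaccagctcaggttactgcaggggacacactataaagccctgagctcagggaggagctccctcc
Counted from the start, with the base before it as -1, the matches begin at -78, -63 and -29 in RAB17, at -147, -89 and -60 in CRB3, at -22 in FZD5 and at -120 in ELF3.

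By role the E2-box letters occurred in 8 of 10 epithelial regulators with a promoter, 9 of 15 junction genes, 10 of 13 kinases and adaptors and 5 of 15 interferon and antigen presentation genes. The interferon-stimulated response element was found in 7 of those same 15 interferon and antigen presentation genes, in 0 of 10 epithelial regulators and in 2 of 15 junction genes. IFIH1 and TAP1 are shown for it in the same way, with the 10 letters of this motif or its reverse complement in capitals, at chr2:162318685-162318884 (minus strand, IFIH1) and chr6:32853705-32853904 (minus strand, TAP1, the upstream one of its RefSeq windows).
IFIH1: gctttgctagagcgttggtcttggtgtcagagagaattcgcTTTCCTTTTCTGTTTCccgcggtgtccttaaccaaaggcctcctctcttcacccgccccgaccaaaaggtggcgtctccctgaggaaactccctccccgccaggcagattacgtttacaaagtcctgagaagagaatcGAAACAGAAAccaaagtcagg
TAP1: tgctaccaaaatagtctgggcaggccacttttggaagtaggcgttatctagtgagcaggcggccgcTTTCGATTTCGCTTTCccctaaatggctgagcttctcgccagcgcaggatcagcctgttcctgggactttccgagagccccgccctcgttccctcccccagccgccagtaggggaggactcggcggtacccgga
In both genes the first run of capitals holds 2 overlapping matches, which begin at -159 and -153 in IFIH1 and at -134 and -128 in TAP1, and IFIH1 has another at -21.

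The junction and adhesion genes formed one of the largest role groups, with 22 members. CDH1, which encodes E-cadherin, had 8.34 FPKM in hEPS + Cr against 2.98 FPKM in hEPS, 33.8 FPKM in Endoderm, and 2.17 FPKM in H9-primed + Cr against 101 FPKM in H9-primed. Its fall of -5.00 was among the largest of all members, yet even after its rise of 1.23 in hEPS cells it stayed far below H9-primed. CDH3, the neighbouring gene for P-cadherin, had 25.9 FPKM in hEPS + Cr against 10.7 FPKM in hEPS and 11.8 FPKM in H9-primed + Cr against 66.7 FPKM in H9-primed. In Endoderm it stood at 61.5 FPKM, close to H9-primed. CLDN7, a claudin of tight junctions, was at 30.3 FPKM in hEPS + Cr against 5.20 FPKM in hEPS and at 2.36 FPKM in H9-primed + Cr against 44.5 FPKM in H9-primed. Exons of CLDN7 overlap those of another protein-coding gene, and 32 members in all have such an overlap, among them CRB3, OVOL2, LEFTY1, TDGF1, PSMB8, PSMB9, EIF2AK2, IFIT2, PIK3CD and NFE2L3, and the strand used for counting is not stated, so reads could be shared.

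Other tight junction members had the same pair of changes, by the rule, at lower levels. CLDN4 was the claudin highest in Endoderm among the members, at 32.7 FPKM, against 15.4 FPKM in H9-primed, and had 6.80 FPKM in hEPS + Cr against 1.17 FPKM in hEPS and 1.77 FPKM in H9-primed + Cr. CLDN3, which lies within 100 kb of CLDN4, had 16.2 FPKM in hEPS + Cr against 6.95 FPKM in hEPS and 0.324 FPKM in H9-primed + Cr against 15.3 FPKM in H9-primed, but 3.26 FPKM in Endoderm. These neighbours moved alike with crotonate by the rule, and they stood on opposite sides of H9-primed in Endoderm. Occludin (OCLN) had 24.1 FPKM in hEPS + Cr against 10.5 FPKM in hEPS and 0.240 FPKM in H9-primed + Cr against 8.85 FPKM in H9-primed, and MARVELD2, the tricellulin gene beside it, had 19.5 FPKM against 6.84 FPKM and 0.610 FPKM against 11.2 FPKM in the same pairs. CRB3, a polarity protein of the apical membrane, was at 11.3 FPKM in hEPS + Cr against 3.56 FPKM in hEPS and at 0.741 FPKM in H9-primed + Cr against 12.5 FPKM in H9-primed.

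The cytoskeletal linkers of desmosomes and keratin filaments followed. PPL, periplakin, had 15.3 FPKM in hEPS + Cr against 3.93 FPKM in hEPS and 0.386 FPKM in H9-primed + Cr against 19.0 FPKM in H9-primed. EPPK1, epiplakin, had 12.7 FPKM in hEPS + Cr against 2.80 FPKM in hEPS and 0.155 FPKM in H9-primed + Cr against 8.56 FPKM in H9-primed. KRT17, a keratin of stratified epithelium, had 11.2 FPKM in hEPS + Cr against 2.39 FPKM in hEPS and 0.0874 FPKM in H9-primed + Cr against 4.68 FPKM in H9-primed. Not every epithelial gene behaved so: the keratins of simple epithelium KRT8 and KRT18 were higher with crotonate in both cell states, by 1.63 and 1.35 in hEPS cells and by 1.66 and 1.17 in primed hESCs.

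In the list of 22 measured tight junction genes, 9 were higher and 0 lower in hEPS + Cr (40.9% against 7.65% of all measured genes higher), and 15 were lower and 0 higher in H9-primed + Cr (68.2% against 12.5% lower), with 7 members (31.8% against 1.44%). The median change over the list was 0.78 in hEPS cells and -2.12 in primed hESCs. CLDN6, the most abundant claudin of H9-primed, was not a member, since it had 372 FPKM in hEPS + Cr against 400 FPKM in hEPS, while it had 19.8 FPKM in H9-primed + Cr against 396 FPKM in H9-primed. EPCAM likewise fell in primed hESCs, with 8.73 FPKM in H9-primed + Cr against 144 FPKM in H9-primed, and had 125 FPKM in hEPS + Cr against 99.4 FPKM in hEPS. Among 31 measured genes of epithelial adhesion, splicing and polarity, 15 were higher (48.4% against 7.65% of all measured genes) and 0 lower in hEPS + Cr. In H9-primed + Cr 22 were lower (71.0% against 12.5%) and 2 higher, and 13 were members (41.9% against 1.44%). The median change of that list was 0.98 in hEPS cells and -2.24 in primed hESCs. Shares of these and the later lists rest on the same 2 differences that chose the members. The lists were also chosen with earlier results of these data known. Such shares are a description and no independent evidence of an excess.

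The 17 epithelial regulators, proteases and trafficking proteins held the member with the largest pair of changes. RAB17, a small GTPase of polarized epithelial transport, had 96.5 FPKM in hEPS + Cr against 8.41 FPKM in hEPS, and 1.38 FPKM in H9-primed + Cr against 21.0 FPKM in H9-primed. These were changes of 3.37 and -3.21, and in Endoderm RAB17 was at 0.198 FPKM. MLPH, melanophilin, is a RAB effector whose gene lies beside RAB17, and it had 2.24 FPKM in hEPS + Cr against 0.179 FPKM in hEPS and 0.326 FPKM in H9-primed + Cr against 2.22 FPKM in H9-primed. ESRP1, an RNA-binding protein that sets epithelial splicing, had 17.2 FPKM in hEPS + Cr against 7.50 FPKM in hEPS and 0.955 FPKM in H9-primed + Cr against 47.4 FPKM in H9-primed. Its paralog ESRP2 fell in primed hESCs by 3.76 but changed by 0.63 in hEPS cells, short of the threshold.

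Transcription factors of epithelia stayed below 10 FPKM in every column. ELF3, an ETS factor of epithelial differentiation, had 8.82 FPKM in hEPS + Cr against 1.93 FPKM in hEPS and 0.205 FPKM in H9-primed + Cr against 1.53 FPKM in H9-primed. OVOL2, a zinc finger factor that holds back mesenchymal genes, had 2.32 FPKM in hEPS + Cr against 0.661 FPKM in hEPS and 0.594 FPKM in H9-primed + Cr against 5.59 FPKM in H9-primed. SPINT1, an inhibitor of the membrane protease matriptase, was abundant in every group, with 75.9 FPKM in hEPS + Cr against 29.8 FPKM in hEPS, 80.0 FPKM in Endoderm, and 16.1 FPKM in H9-primed + Cr against 64.1 FPKM in H9-primed. Matriptase itself (ST14) had 3.52 FPKM in hEPS + Cr against 0.968 FPKM in hEPS and 0.969 FPKM in H9-primed + Cr against 18.1 FPKM in H9-primed. Both the inhibitor and its protease are members, so their shared direction in each cell state follows from the rule.

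Repressors that bind the E2-box are no members and were looked up after the members were known. ZEB2 had 12.6 FPKM in hEPS + Cr against 33.3 FPKM in hEPS, 15.4 FPKM in Endoderm, and 25.5 FPKM in H9-primed + Cr against 0.0824 FPKM in H9-primed. Its changes were -1.34 and 4.61, the reverse of the members. SNAI2 had 2.83 FPKM in hEPS + Cr against 1.92 FPKM in hEPS, 63.1 FPKM in Endoderm, and 154 FPKM in H9-primed + Cr against 1.006 FPKM in H9-primed. ZEB1 had 9.44 FPKM in hEPS + Cr against 10.5 FPKM in hEPS, and 4.86 FPKM in H9-primed + Cr against 0.540 FPKM in H9-primed. Of these 3 genes only ZEB2 moved at least 2-fold in opposite directions, and the part of any of them in the changes of the members was not tested.

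**Figure D2:**
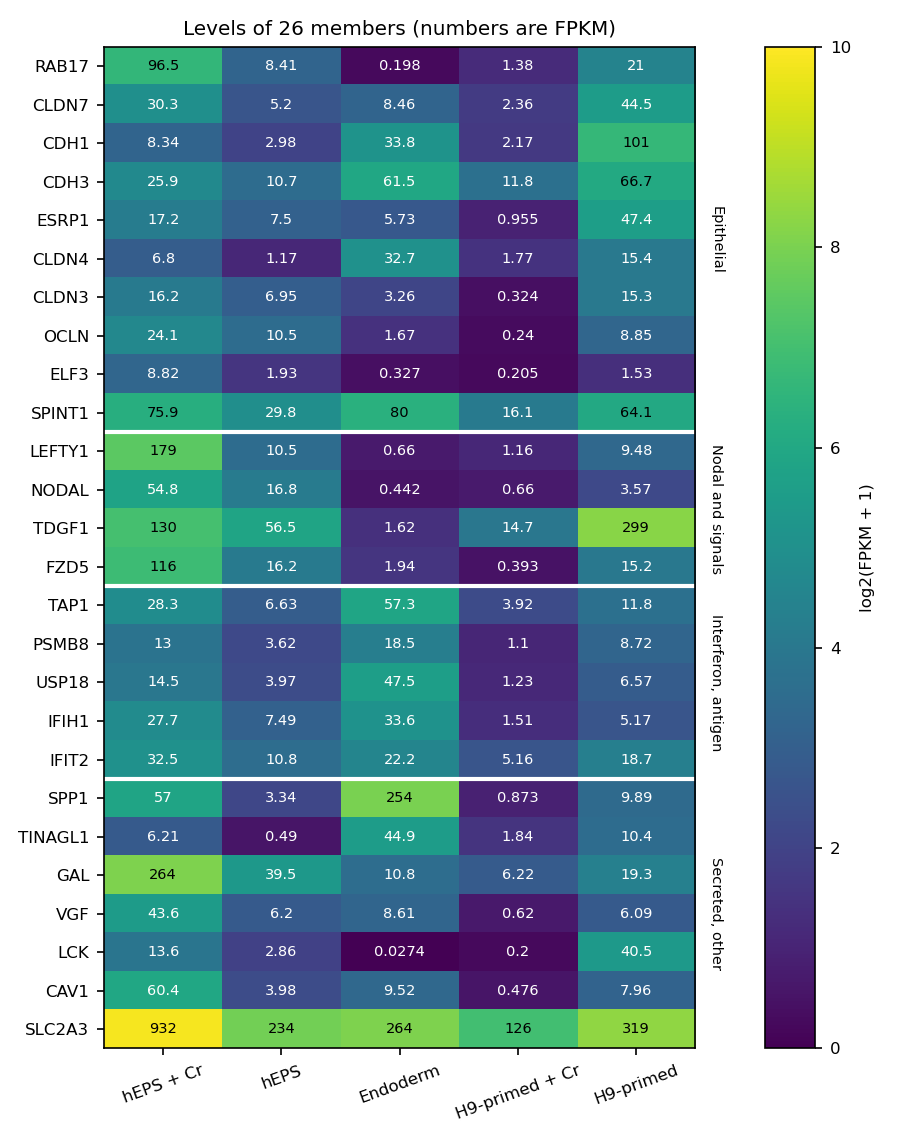
Levels of 26 named members (rows, grouped by role) in hEPS + Cr, hEPS, Endoderm, H9-primed + Cr and H9-primed, coloured by log2(FPKM + 1) with the FPKM printed in each cell. Each row is higher in hEPS + Cr than in hEPS and lower in H9-primed + Cr than in H9-primed by the rule, whereas Endoderm ranges from 0.0274 FPKM for LCK to 264 FPKM for SLC2A3.

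The Nodal pathway and other developmental signals gave 8 members. NODAL, a TGF-beta family ligand, had 54.8 FPKM in hEPS + Cr against 16.8 FPKM in hEPS, 0.442 FPKM in Endoderm, and 0.660 FPKM in H9-primed + Cr against 3.57 FPKM in H9-primed. LEFTY1, a secreted Nodal inhibitor and target, had the highest rise of all members, with 179 FPKM in hEPS + Cr against 10.5 FPKM in hEPS, and had 1.16 FPKM in H9-primed + Cr against 9.48 FPKM in H9-primed. Its near-identical neighbour LEFTY2 was not a member: it had 810 FPKM in hEPS + Cr against 13.3 FPKM in hEPS, but 41.7 FPKM in H9-primed + Cr against 2.51 FPKM in H9-primed. The pair therefore moved together in hEPS cells and apart in primed hESCs, and reads could be split between them.

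TDGF1, the Nodal coreceptor Cripto, was at 130 FPKM in hEPS + Cr against 56.5 FPKM in hEPS and at 14.7 FPKM in H9-primed + Cr against 299 FPKM in H9-primed. It was the member furthest below H9-primed in Endoderm, at 1.62 FPKM, a difference of -6.84. FZD5, a WNT receptor, had 116 FPKM in hEPS + Cr against 16.2 FPKM in hEPS and 0.393 FPKM in H9-primed + Cr against 15.2 FPKM in H9-primed, with 1.94 FPKM in Endoderm. Untreated hEPS cells and untreated primed hESCs thus held FZD5 at similar levels, which moved apart with crotonate by the rule. FZD7, another WNT receptor of hESCs, changed by -0.22 in hEPS cells and by -0.05 in primed hESCs. Among 24 measured Nodal and TGF-beta genes, 11 were higher (45.8% against 7.65% of all measured genes) and 1 lower in hEPS + Cr. In H9-primed + Cr 5 were lower (20.8% against 12.5%) and 8 higher, against 12.5% of all measured genes higher. The 4 members made up 16.7% of the list, against 1.44%.

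The 18 interferon, antigen presentation and immune ligand genes differed from the epithelial ones in their Endoderm levels. TAP1, a subunit of the peptide transporter that feeds MHC class I, had 28.3 FPKM in hEPS + Cr against 6.63 FPKM in hEPS, 57.3 FPKM in Endoderm, and 3.92 FPKM in H9-primed + Cr against 11.8 FPKM in H9-primed. PSMB8, an immunoproteasome subunit encoded beside it, had 13 FPKM in hEPS + Cr against 3.62 FPKM in hEPS, 18.5 FPKM in Endoderm, and 1.1 FPKM in H9-primed + Cr against 8.72 FPKM in H9-primed. PSMB9, the third gene of this cluster, had 8.10 FPKM in hEPS + Cr against 1.66 FPKM in hEPS, 9.30 FPKM in Endoderm, and 0.262 FPKM in H9-primed + Cr against 1.59 FPKM in H9-primed. All 3 neighbours were highest in Endoderm and lowest in H9-primed + Cr.

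Sensors of viral RNA were members too. IFIH1, the double-stranded RNA sensor MDA5, had 27.7 FPKM in hEPS + Cr against 7.49 FPKM in hEPS, 33.6 FPKM in Endoderm, and 1.51 FPKM in H9-primed + Cr against 5.17 FPKM in H9-primed. DHX58, the related protein LGP2, had 9.87 FPKM in hEPS + Cr against 2.52 FPKM in hEPS, 4.52 FPKM in Endoderm, and 0.420 FPKM in H9-primed + Cr against 2.20 FPKM in H9-primed. EIF2AK2, the RNA-activated kinase PKR, had 151 FPKM in hEPS + Cr against 49.2 FPKM in hEPS, 26.4 FPKM in Endoderm, and 11.1 FPKM in H9-primed + Cr against 23.5 FPKM in H9-primed. Of these sensors only IFIH1 was highest in Endoderm. USP18, which removes ISG15 from proteins and damps interferon signalling, had 14.5 FPKM in hEPS + Cr against 3.97 FPKM in hEPS, 47.5 FPKM in Endoderm, and 1.23 FPKM in H9-primed + Cr against 6.57 FPKM in H9-primed. IFNL1, an interferon lambda, had 11 FPKM in hEPS + Cr against 2.63 FPKM in hEPS and was listed at 0 in H9-primed + Cr against 1.49 FPKM in H9-primed.

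A list of classical interferon-inducible genes was counted as well. Of its 29 measured genes, 23 were higher and 0 lower in hEPS + Cr (79.3% against 7.65% of all measured genes higher). In H9-primed + Cr 3 were lower (10.3%, near the 12.5% of all measured genes) and 11 higher, against 12.5% of all measured genes higher. IFIT2 and USP18 were among the 3 members of the list (10.3% against 1.44% of all measured genes). ISG15, for example, had 1457 FPKM in hEPS + Cr against 400 FPKM in hEPS, and 275 FPKM in H9-primed + Cr against 114 FPKM in H9-primed. Among 25 measured antigen presentation genes, 14 were higher (56.0% against 7.65% of all measured genes) and 0 lower in hEPS + Cr. In H9-primed + Cr 6 were lower (24.0% against 12.5%) and 3 higher, against 12.5% of all measured genes higher. Members were HLA-G, PSMB8, PSMB9 and TAP1 (16.0% of the list against 1.44%). B2M, the light chain of MHC class I, was higher with crotonate in both, by 1.53 in hEPS cells and by 2.17 in primed hESCs.

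The secreted and matrix proteins gave 12 members. SPP1, the matrix phosphoprotein osteopontin, had 57.0 FPKM in hEPS + Cr against 3.34 FPKM in hEPS, 254 FPKM in Endoderm, and 0.873 FPKM in H9-primed + Cr against 9.89 FPKM in H9-primed. TINAGL1, a matricellular glycoprotein, had 6.21 FPKM in hEPS + Cr against 0.490 FPKM in hEPS, 44.9 FPKM in Endoderm, and 1.84 FPKM in H9-primed + Cr against 10.4 FPKM in H9-primed. Both of these secreted proteins were highest in Endoderm. By contrast STC1, the hormone stanniocalcin, was at 36.9 FPKM in hEPS + Cr against 5.11 FPKM in hEPS, at 5.28 FPKM in Endoderm, and at 3.14 FPKM in H9-primed + Cr against 15.4 FPKM in H9-primed, and IGFBPL1 was at 104 FPKM, 26.3 FPKM, 0.952 FPKM, 5.59 FPKM and 29.7 FPKM in the same 5 columns.

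Neuropeptides and secretory vesicle genes counted 11 members. GAL, the neuropeptide galanin, had 264 FPKM in hEPS + Cr against 39.5 FPKM in hEPS, 10.8 FPKM in Endoderm, and 6.22 FPKM in H9-primed + Cr against 19.3 FPKM in H9-primed. VGF, a precursor of neuroendocrine peptides, had 43.6 FPKM in hEPS + Cr against 6.20 FPKM in hEPS, 8.61 FPKM in Endoderm, and 0.620 FPKM in H9-primed + Cr against 6.09 FPKM in H9-primed. CHGA, chromogranin A of dense-core granules, had 13.4 FPKM in hEPS + Cr against 4.03 FPKM in hEPS, 0.0777 FPKM in Endoderm, and 0.227 FPKM in H9-primed + Cr against 32.6 FPKM in H9-primed. The 3 cargo genes shared the direction with crotonate by the rule. They differed in size, with VGF and GAL leading in hEPS cells and CHGA in primed hESCs. CCKBR, the receptor for gastrin and cholecystokinin, had 165 FPKM in hEPS + Cr against 35.6 FPKM in hEPS and 1.5 FPKM in H9-primed + Cr against 5.43 FPKM in H9-primed. Of 24 measured genes in the neuropeptide, granin and secretory vesicle list, 10 were higher (41.7%) and 1 lower in hEPS + Cr. In H9-primed + Cr 10 were lower (41.7%) and 5 higher, and 4 of the 24 were members (16.7%). Over all measured genes these shares were 7.65% higher in hEPS + Cr, 12.5% lower and 12.5% higher in H9-primed + Cr, and 1.44% members.

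Kinases, adaptors and death receptors made up 20 members. LCK, a SRC-family kinase best known from T cells, fell the most of all members, with 0.20 FPKM in H9-primed + Cr against 40.5 FPKM in H9-primed. In hEPS + Cr it stood at 13.6 FPKM against 2.86 FPKM in hEPS, and in Endoderm at 0.0274 FPKM. At most 1 of 7 blood markers reached 1 FPKM in any group. PIK3CD and PIK3R5, a catalytic and a regulatory subunit of class I PI3 kinases, rose by 1.94 and 2.25 in hEPS cells and fell by 1.22 and 1.34 in primed hESCs. Among 17 measured SRC-family and PI3 kinase genes, 5 were higher (29.4% against 7.65% of all measured genes) and 0 lower in hEPS + Cr. In H9-primed + Cr 5 were lower (29.4% against 12.5%) and 3 higher, against 12.5% of all measured genes higher. SH2D3A, an SH2 adaptor, had 9.07 FPKM in hEPS + Cr against 1.28 FPKM in hEPS and 1.56 FPKM in H9-primed + Cr against 9.96 FPKM in H9-primed.

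Transporters, channels and enzymes added 35 members. SLC2A3, the glucose transporter GLUT3, was the most abundant member, with 932 FPKM in hEPS + Cr against 234 FPKM in hEPS, 264 FPKM in Endoderm, and 126 FPKM in H9-primed + Cr against 319 FPKM in H9-primed. Its near-identical neighbour SLC2A14 is also a member, and reads could be split between them. SLC2A1, the glucose transporter GLUT1, changed by -0.31 in hEPS cells and by -2.30 in primed hESCs. SLC7A5, a subunit of the large neutral amino acid transporter LAT1, had 471 FPKM in hEPS + Cr against 118 FPKM in hEPS, 140 FPKM in Endoderm, and 34.8 FPKM in H9-primed + Cr against 101 FPKM in H9-primed. Of 230 measured solute carriers, 20 were higher (8.70% against 7.65% of all measured genes) and 2 lower in hEPS + Cr, 39 were lower (17.0% against 12.5%) and 21 higher in H9-primed + Cr, and 8 were members (3.48% against 1.44%). CYP26A1, which breaks down retinoic acid, had 240 FPKM in hEPS + Cr against 57.4 FPKM in hEPS, 1.79 FPKM in Endoderm, and 2.57 FPKM in H9-primed + Cr against 9.22 FPKM in H9-primed. ALDH1A3, which makes retinoic acid, had 3.75 FPKM in hEPS + Cr against 0.949 FPKM in hEPS and 0.359 FPKM in H9-primed + Cr against 4.49 FPKM in H9-primed.

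Among 5 transcription factors outside the epithelial group, FOSL1, the AP-1 subunit FRA1, had 19.1 FPKM in hEPS + Cr against 4.16 FPKM in hEPS, 7.29 FPKM in Endoderm, and 1.67 FPKM in H9-primed + Cr against 9.64 FPKM in H9-primed. It was the 1 member among 21 measured AP-1 and immediate early genes (4.76% against 1.44% of all measured genes). Of the 21, 10 were higher (47.6% against 7.65%) and 0 lower in hEPS + Cr. In H9-primed + Cr 1 was lower (4.76% against 12.5%) and 8 higher, against 12.5% of all measured genes higher. NFE2L3, a bZIP factor, had 39.1 FPKM in hEPS + Cr against 18.3 FPKM in hEPS and 4.60 FPKM in H9-primed + Cr against 67.9 FPKM in H9-primed. CAV1, caveolin 1 of membrane invaginations, had 60.4 FPKM in hEPS + Cr against 3.98 FPKM in hEPS, 9.52 FPKM in Endoderm, and 0.476 FPKM in H9-primed + Cr against 7.96 FPKM in H9-primed. Its neighbour and partner CAV2 rose by 2.49 in hEPS cells but changed by 0.67 in primed hESCs.

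**Figure D3:**
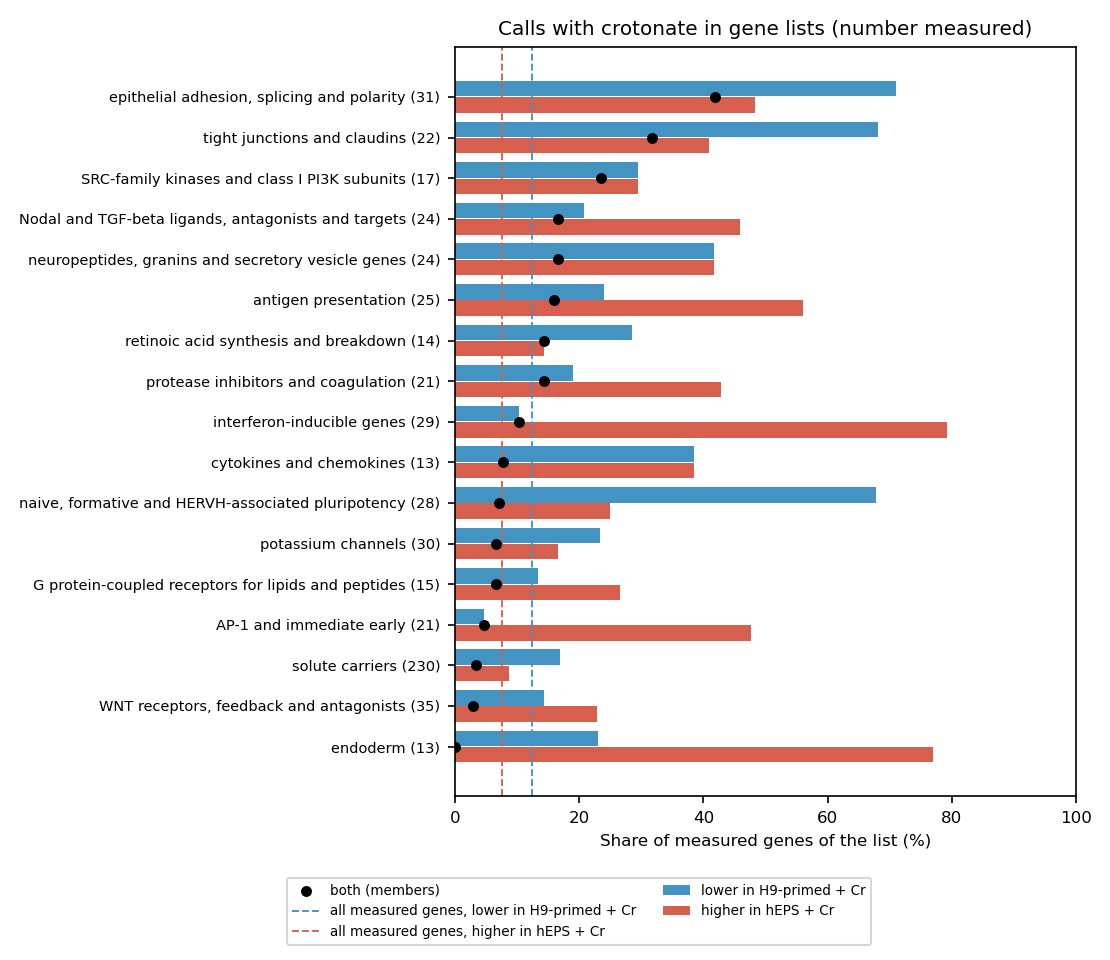
For each gene list with at least 10 measured genes (number measured in parentheses), the bars give the percent of genes lower in H9-primed + Cr (blue) and higher in hEPS + Cr (red), the dot the percent that are members, and the dashed lines the percent of all measured genes (12.5% lower in H9-primed + Cr, 7.65% higher in hEPS + Cr). The epithelial and tight junction lists lead in members, and no member is in the endoderm list. The lists were chosen with earlier results of these data known, so the shares are a description.

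Lists of pluripotency and endoderm genes were also counted. The list of naive, formative and HERVH-associated pluripotency had 28 measured genes. Of the 28, 7 were higher (25% against 7.65% of all measured genes) and 3 lower in hEPS + Cr. In H9-primed + Cr 19 were lower (67.9% against 12.5%) and 2 higher, against 12.5% of all measured genes higher. ABHD12B and TDGF1 were members. Of 13 measured endoderm genes, 10 were higher (76.9% against 7.65% of all measured genes) and 0 lower in hEPS + Cr. In H9-primed + Cr 3 were lower (23.1% against 12.5%) and 8 higher, against 12.5% of all measured genes higher, and 0 were members. The members were 7.14% of the pluripotency list, against 1.44% of all measured genes, and the endoderm list is too short for its count of 0 to be read against that share.

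The Endoderm column was not used by the rule, and levels there varied between the roles. In Endoderm 114 of 174 members (65.5%) had at least 1 FPKM, against 1042 of the 1339 genes that fell in primed hESCs without rising in hEPS cells (77.8%) and 92.5% of all measured genes. The median Endoderm level was 2.19 FPKM for members, 5.76 FPKM for these 1339 genes and 10.5 FPKM for all measured genes. Members were also lower in H9-primed, with a median of 8.02 FPKM against 18.3 FPKM for the 1339 genes. A total of 34 members exceeded 10 FPKM in Endoderm and 31 lay below 0.2 FPKM. These 2 counts were not made for other genes, so they only describe the spread among members. Among the 8 highest were SLC2A3, SPP1, SLC7A5, LGALS3BP (130 FPKM), TNFRSF12A (90.3 FPKM), SPINT1 and CDH3. LGALS3BP is a secreted glycoprotein inducible by interferon, and TNFRSF12A is the TWEAK receptor, whose exons overlap those of CLDN6.

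Set against H9-primed, 117 of 174 members (67.2%) were at least 2-fold lower in Endoderm, 46 were within 2-fold and 11 (6.32%) were higher. Over all measured genes 15.8% were lower and 11.9% higher, and of the 1339 other genes that fell in primed hESCs 962 (71.8%) were lower and 7 (0.523%) higher. The median difference was -1.36 for members, -1.35 for the 1339 genes and -0.18 for all measured genes. Since every member had to be expressed in H9-primed to fall there, these differences share a column with the rule. Among the 5 members furthest above H9-primed in Endoderm were SPP1 (4.55), USP18 (2.68), IFIH1 (2.49) and TAP1 (2.19). The other 6 were TINAGL1, PSMB9, LGALS3BP, CAPN6, CLDN4 and PSMB8. Of the 11, 6 belong to the interferon and antigen presentation group.

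Set against H9-primed + Cr, 55 of the 123 members that reached 1 FPKM in either column (44.7%) were higher in Endoderm, 62 were within 2-fold and 6 were lower. All measured genes gave 4.19% higher and 6.65% lower, and the 1339 other genes that fell in primed hESCs gave 122 of 1119 higher (10.9%). The rule picked members for a low value in H9-primed + Cr, and 35 of the 123 reached 1 FPKM in Endoderm alone, so that these counts are a description from which no excess over other genes is read. Of the 88 members with at least 1 FPKM in H9-primed + Cr, 29 were higher in Endoderm. The median difference was 0.33 for members, 0.09 for the 1339 genes and -0.08 for all measured genes. The 6 lower ones were TDGF1, IGFBPL1, MMP17, FAM184A, GAL3ST1 and SPOCK1, led by TDGF1 at -2.58 and IGFBPL1 at -1.76.

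The roles differed in these values. Both columns set against Endoderm were used by the rule, so they too are a description. In the interferon and antigen presentation group the median over its 18 genes was 1.94 against H9-primed + Cr and 0.50 against H9-primed, and 9 of its 11 genes with at least 1 FPKM in H9-primed + Cr were higher in Endoderm. Junction genes were next, with a median of 1.17 against H9-primed + Cr and 6 of 8 such genes higher, but 14 of 22 were lower than in H9-primed, with a median of -1.60. The epithelial regulators had medians of 0.30 against H9-primed + Cr and -1.77 against H9-primed, and 2 of 8 such genes were higher than in H9-primed + Cr. The Nodal group had medians of 0.01 against H9-primed + Cr and -1.73 against H9-primed, and 6 of its 8 genes were lower than in H9-primed. Kinases and adaptors had a median of 0.19 against H9-primed + Cr, and 2 of 11 such genes were higher. The roles were assigned by hand after the members were known, and each value comes from 1 column per group.

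**Figure D4:**
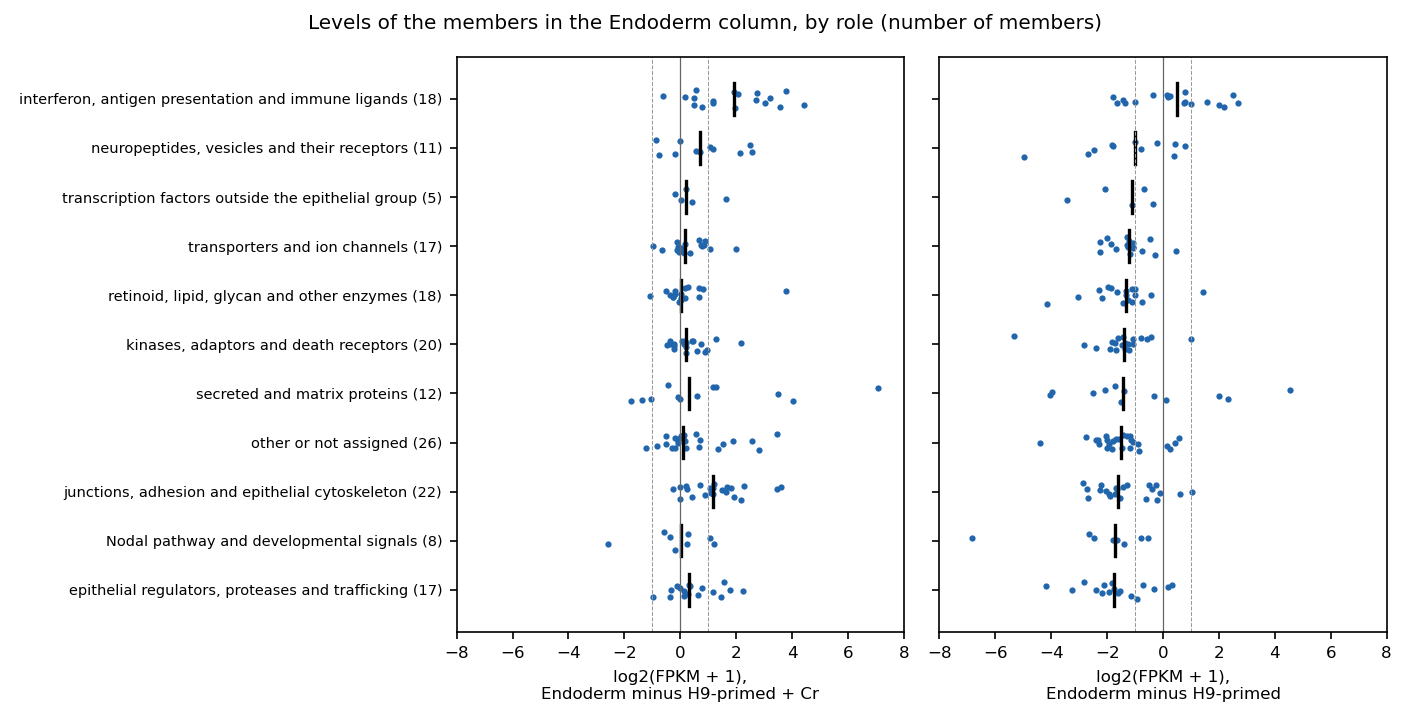
Each point is 1 member, placed by its difference of log2(FPKM + 1) in Endoderm minus H9-primed + Cr (left) and Endoderm minus H9-primed (right), with roles as rows, the number of members in parentheses, black bars at the medians and dashed lines at 2-fold. Interferon and antigen presentation genes stand highest in both panels (medians 1.94 and 0.50), while junction genes lie above H9-primed + Cr (1.17) and below H9-primed (-1.60).

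Across the 5 columns, 113 members (64.9%) were highest in hEPS + Cr, 47 (27.0%) in H9-primed and 14 (8.05%) in Endoderm. Over all measured genes 24.0% were highest in hEPS + Cr, 15.2% in H9-primed and 10.7% in Endoderm. Among the 14 were SPP1, TINAGL1, CLDN4, USP18, PSMB8, KIAA0040, TAP1, PKP3, SPINT1, CAPN6, IFIH1, FAM84B and PSMB9. By the rule none could be highest in hEPS or in H9-primed + Cr, and hEPS + Cr and H9-primed had to be the higher of their pairs. These shares are therefore a description from which no excess over other genes is read. Of the 1339 other genes that fell in primed hESCs, 17 (1.27%) were highest in Endoderm.

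Before treatment the members had a lower median level in hEPS cells than in primed hESCs. The rule picked members for higher values in H9-primed and hEPS + Cr than in their partner columns. The differences in this paragraph are therefore a description from which no excess over other genes is read. The median difference of hEPS minus H9-primed was -0.76, against 0.38 for all measured genes, with 77 members at least 2-fold lower, 88 within 2-fold and 9 higher. In hEPS + Cr the median difference from H9-primed was 0.68, against 0.32 for all measured genes, with 73 members higher, 89 within 2-fold and 12 lower. Centring the changes on their median, which also altered the set to 181 members with 158 of the 174 among them, gave -1.31 and 0.18. The 9 members already higher in hEPS were CYP26A1, NODAL, CCKBR, NFASC, RAB15, FAM159B, FAM184A, LGALS3BP and EIF2AK2. Junction genes and epithelial regulators started lowest, with medians of -1.35 and -1.39 for hEPS minus H9-primed, and came to -0.03 and 0.17 in hEPS + Cr.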

How the data were processed

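RNA-seq of H9 LTR7-GFP reporter cells was used. Per the submitters' processing notes and the methods of the study, the authors mapped paired-end reads to hg38, with TopHat 1.3.2, Cufflinks 1.1.0, HTSeq 0.6.0 and StringTie 1.3.0 named, normalized by TMM in edgeR and converted the values to FPKM. The deposited FPKM values fill 5 columns in 3 tables, 1 per group of 2 labelled samples, and 0 further columns hold values per sample. Read totals are not in the tables, so depth is known only in relative terms: by the steps of low values, the scaling of H9-primed + Cr was 0.883 times that of H9-primed, of Endoderm 1.07 times that of H9-primed, and of hEPS + Cr 0.758 times that of hEPS. The columns summed to 596397 and 610417 FPKM in hEPS + Cr and hEPS, and to 369750 to 373248 FPKM in the others. The hEPS table lists 26731 genes and each other table lists 19198, after symbols turned into dates (28 and 27) were dropped.

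Changes are differences of log2(FPKM + 1), called at 2-fold for genes that reached 1 FPKM in either column, which understates changes of low genes. With 1 column per group no test was run. The calling rule was also run on simulated data, with changes planted well past the 2-fold threshold in genes of at least 5 FPKM. That run checks the code only, since it holds no low genes and no spread between samples. The members and the gene lists were chosen with earlier results of these data known. Named are the 12 members with the largest smaller change, the 8 highest in Endoderm, the 5 furthest above H9-primed there, up to 6 per list or role, the 3 on each side of a threshold, and paralogs. Beyond that rule, other members that complete a pair or count, and CLDN6, EPCAM, KRT8, KRT18, ZEB1, ZEB2, SNAI2, ISG15, B2M, FZD7 and SLC2A1, were named after their values were seen, as were the roles. All 174 members were found in GENCODE 44, 165 by symbol and 9 by an older symbol, and 32 have exons that overlap another protein-coding gene. Promoters are RefSeq windows. Some genes are not reported here. Alternatives were other pseudocounts, filters, scalings and folds. Python 3.11.15, numpy 2.4.6, pandas 2.3.3 and matplotlib 3.10.9 were used.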

Additional observations from a re-analysis of the deposited data

Results flagged for a closer look

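The 174 members changed in opposite directions in the 2 cell states, which follows from the rule, and 44 other genes changed the reverse way, higher in H9-primed + Cr and lower in hEPS + Cr. The difference between the cell states was not tested for any of them, since each group has 1 column. Over all measured genes of the tight junction list the median change was 0.78 in hEPS cells and -2.12 in primed hESCs, and over the epithelial adhesion, splicing and polarity list it was 0.98 in hEPS cells and -2.24 in primed hESCs. These medians lie on opposite sides of 0, and that difference was not tested either.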

How the results depend on the processing

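The number of members was 267 with a pseudocount of 0.1 (all 174 among them), 103 with a minimum of 5 FPKM, 40 with a threshold of 1.5 on the log2 scale and 422 with a 1.5-fold threshold. Genes lower in H9-primed + Cr numbered 677 and 3111 with these last thresholds, and genes higher in hEPS + Cr 400 and 1863, and 574 with a minimum of 5 FPKM. Members with at least 1 FPKM in Endoderm numbered 27 and 287 with the thresholds of 1.5 and of 1.5-fold. The median of Endoderm minus H9-primed was -1.98 with a pseudocount of 0.1, -1.59 with 0.5, -1.66 with the threshold of 1.5 and -1.13 with 1.5-fold. The median of Endoderm minus H9-primed + Cr was 0.71 with a minimum of 5 FPKM and 0.73 with the threshold of 1.5. The median of hEPS minus H9-primed was -1.31 with changes centred on their median, -1.06 with the threshold of 1.5 and -0.56 with 1.5-fold, and that of hEPS + Cr minus H9-primed was 0.18 with that centring, which gave 181 members. Stricter settings keep fewer genes and looser ones more, and the cause of the other shifts was not tested. The other 51 of 72 values moved little, and no median changed direction. Here a count moved little if it stayed within 1.5-fold, and a median if it stayed inside an interval drawn over the member genes. That interval treats genes as replicates, so it says nothing on spread between samples. Quantile normalization kept 159 of the 174 members and centring 158. How much of the shift with centring comes from the changed set was not tested.

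No paired analysis was possible because each group has 1 column, and leaving out single replicates was likewise not possible. Values near 0 rest on few reads, Endoderm and the hEPS groups stand in tables of their own, and a call near a threshold has no replicate check.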

Other observations

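Some members lay close to each other in the genome. There were 16 pairs of members whose genes lie within 100 kb, involving 30 of the 174 members. No comparison with other sets of genes was made, so no clustering of the members is read from this count. Among the pairs were CDH1 and CDH3, CLDN3 and CLDN4, OCLN and MARVELD2, RAB17 and MLPH, SPINT1 and RHOV, PKP3 and ANO9, LEFTY1 and TMEM63A, IFIT2 and CH25H, SLC2A3 and SLC2A14, and SBK2 and SBK3. PSMB8, PSMB9 and TAP1 made a run of 3. Chromosome 1 held 18 members and chromosome 19 held 15, the highest numbers of any chromosome. Measured genes were not counted by chromosome, so these numbers are not read as an excess.

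MMP9, a matrix metalloproteinase that is no member, had 17.4 FPKM in hEPS + Cr against 0.196 FPKM in hEPS, 41.5 FPKM in Endoderm, and 3.75 FPKM in H9-primed + Cr against 1.71 FPKM in H9-primed. MMP17, a member, had 32.7 FPKM in hEPS + Cr against 11.1 FPKM in hEPS, 0.480 FPKM in Endoderm, and 2.85 FPKM in H9-primed + Cr against 23.3 FPKM in H9-primed. Both genes were looked up after the members were known.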
